A study of Homo sapiens with 12 samples.

Results

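The genes described here are the 33 genes of cholesterol and fatty acid synthesis and of its control, out of 59324 gene rows, measured in MDA-MB-468. This is an established human line from a breast cancer of the triple-negative type. They were taken by symbol, and each symbol had 1 row. The sterol arm held 19 genes, namely 18 enzymes from the thiolase ACAT2 to the reductase DHCR7 and the sterol carrier STARD4. The fatty acid arm held 9 genes, and 5 genes that control the SREBP transcription factors formed a control set (SREBF1, SREBF2, SCAP, INSIG1 and INSIG2). RNA sequencing of total RNA gave 12 libraries in 4 groups of 3: control cells, SAHA, sonidegib and the combination. SAHA (vorinostat), a histone deacetylase inhibitor, was given at 10 µM for 12 h. Sonidegib, an inhibitor of Smoothened in the Hedgehog pathway, was given at 10 µM for 72 h. In the combination sonidegib was a pretreatment. All groups came from this 1 cell line. The labels do not say whether the libraries of a group were separate cultures, so the p-values rest on spread between libraries that may be technical.

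Cells make cholesterol and isoprenoids from acetyl-CoA through mevalonate, squalene and lanosterol, and they make fatty acids from the same acetyl-CoA through malonyl-CoA. SREBP proteins switch on these genes. SCAP carries SREBP from the endoplasmic reticulum to the Golgi for cleavage when sterols are low, and INSIG1 and INSIG2 hold it back when sterols are high. SREBF2 encodes SREBP2, which acts mainly on sterol genes, and SREBF1 encodes SREBP1, whose main form in liver acts mainly on fatty acid genes. INSIG1 is itself a target of SREBP.

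Levels are in TPM, transcripts as a share of the library after correction for gene length, given as mean ± SD with n = 3 libraries per group, and the read depth is unknown. Changes are differences in log2(TPM + 1) ± standard error (SE), a scale that understates the change of genes at a few TPM. A gene was called, and is said to have risen or fallen, at an adjusted p under 0.05 in limma over the 13937 genes averaging 1 TPM or more. Of the 33 genes 32 passed that filter and ELOVL6 did not. In bulk RNA, fewer cells that express a gene and less RNA per cell cannot be told apart.

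Each library had 20125 to 21402 genes above 0. The epithelial markers KRT8 (836 to 2388 TPM), EPCAM (178 to 346 TPM) and the basal keratin KRT5 (446 to 617 TPM) were present in every library, and the progesterone receptor PGR was listed at 0 in all of them. The 10 epithelial and receptor markers summed to 4997 to 5438 TPM in control libraries, 6617 to 6866 in SAHA libraries, 3112 to 3210 in sonidegib libraries and 3361 to 3524 in combination libraries, and their part in the results was not tested. The 17 genes for 5S ribosomal RNA were all at 0 wherever sonidegib was not given and summed to 1488 to 12641 TPM in those with it. The share of mitochondrial ribosomal RNA was 0.616% ± 0.0523 in control, 1.24% ± 0.0942 in SAHA, 2.22% ± 0.223 in sonidegib and 2.61% ± 0.231 in combination libraries. Sonidegib and any difference in preparation between these sets of libraries cannot be told apart. The comparisons SAHA to control and combination to sonidegib each stay within a set.

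SREBF1 and SREBF2 moved apart. SREBF1 (ENSG00000072310, chromosome 17, 17810399 to 17837002, GRCh38) stood at 77.7, 77.9 and 88.0 TPM in the control libraries, at 147, 148 and 149 with SAHA, at 27.4, 22.0 and 24.7 with sonidegib and at 20.4, 34.7 and 29.2 with the combination. SREBF1 was thus high in every SAHA library and low in every library given sonidegib, with or without SAHA. It rose with SAHA (0.87 ± 0.15, limma adjusted p = 0.000411), fell with sonidegib (-1.68 ± 0.15, adjusted p = 2.97e-06) and also in the combination (-1.53 ± 0.15, adjusted p = 3.92e-06). In cells given sonidegib, adding SAHA gave SREBF1 a change of 0.15 ± 0.15 (adjusted p = 0.453), and the SAHA effect with sonidegib was 0.71 smaller than without it (interaction -0.71 ± 0.21, adjusted p = 0.0252). RAI1, which overlaps SREBF1 on the other strand by 556 exon bases, had means of 16.2 TPM in control cells, 8.49 after SAHA, 13.7 after sonidegib and 5.65 after both drugs. Strand use was not stated, so reads of the overlap are uncertain.

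SREBF2 (ENSG00000198911, chromosome 22, 41833079 to 41907308) stood at 53.0, 49.3 and 55.6 TPM in control and at 52.9, 53.0 and 53.0 with SAHA. It stood at 96.2, 97.8 and 93.9 TPM with sonidegib and at 84.9, 84.3 and 84.1 with the combination. The 6 libraries with sonidegib all lay above the 6 without it. SREBF2 rose with sonidegib (0.86 ± 0.05, adjusted p = 1.17e-07) and, less so, in the combination (0.67 ± 0.05, adjusted p = 3.59e-07), and its change with SAHA was 0.01 ± 0.05 (adjusted p = 0.88). TPM are corrected for length, but the quantifier and strand use are unknown, so levels of different genes compare only roughly. The TPM ratio of SREBF1 to SREBF2 was 1.46 to 1.58 in control libraries and 2.79 to 2.82 after SAHA. It was 0.225 to 0.285 after sonidegib and 0.24 to 0.412 after both drugs. By TPM, SREBF1 was the higher of the pair in libraries without sonidegib, and SREBF2 in those with it.

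INSIG1 (ENSG00000186480, chromosome 7, 155297776 to 155310235), the SREBP target that retains SCAP, had its highest levels in the combination. Its libraries stood at 20.7, 16.3 and 21.8 TPM in control, at 36.6, 32.6 and 36.2 with SAHA, at 12.5, 15.8 and 15.0 with sonidegib and at 40.2, 39.4 and 41.9 with the combination. INSIG1 rose with SAHA (0.82 ± 0.11), fell with sonidegib (-0.41 ± 0.11, adjusted p = 0.00734) and rose with the combination (1.02 ± 0.11). Its SAHA effect was larger in cells given sonidegib (1.43 ± 0.11) than in those without it, by 0.62 ± 0.15 (interaction, adjusted p = 0.0109), the opposite of SREBF1. Against SAHA alone the combination gave 0.20 ± 0.11 (adjusted p = 0.148) although the libraries of these groups did not overlap.

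INSIG2, the second retention protein, and SCAP, the escort, followed SAHA. INSIG2 went from 8.81 ± 1.40 TPM in control to 14.6 ± 0.857 with SAHA, was at 8.91 ± 0.308 with sonidegib and reached 13.3 ± 2.81 with the combination. SCAP went from 30.5 ± 1.38 TPM to 49.1 ± 1.43 with SAHA, was at 30.9 ± 1.87 with sonidegib and reached 40.9 ± 2.29 with the combination. Both rose with SAHA and with the combination, and neither was called for sonidegib alone (0.02 ± 0.14 for INSIG2, adjusted p = 0.901, and 0.02 ± 0.06 for SCAP, adjusted p = 0.808). The SAHA effect on SCAP was smaller with sonidegib (interaction -0.28 ± 0.09, adjusted p = 0.0359), a call lost in 12 of 22 alternatives.

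**Figure D1:**
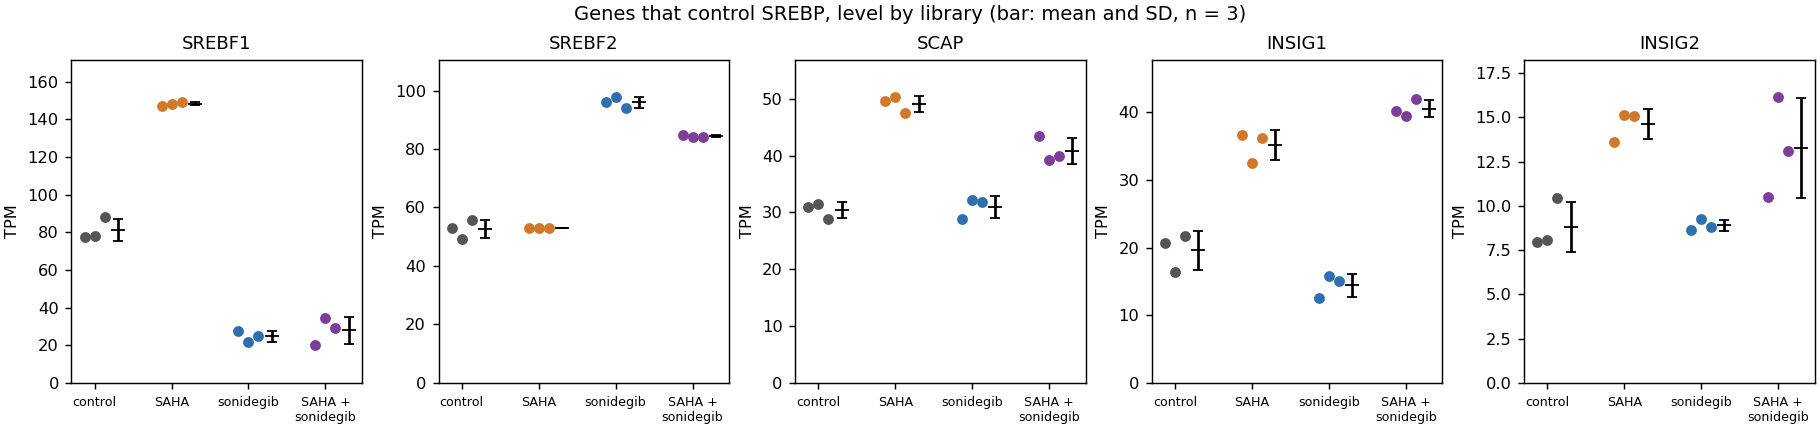
Level in TPM (vertical axis, from 0) of the 5 genes that control SREBP in each of the 12 libraries, by group, with mean and SD. SREBF1 was low in all 6 libraries with sonidegib, SREBF2 was high in the same 6, and INSIG1 was highest in the combination, at 39.4 to 41.9 TPM.

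The stretches just before a RefSeq start site of 4 genes are shown: SREBF2, INSIG1, MSMO1 and MVK. These were the genes whose windows held the sterol element, its shorter form or the palindrome marked in capitals. The stretches come from RefSeq (GRCh38.p14), which gave windows of 250 bases before to 50 bases after a start for 29 of the 33 genes. All 4 lie on the plus strand. Capitals mark the sterol element TCACNCCAC or its shorter form TCACNCCA, the palindrome TCACGTGA and the NF-Y box CCAAT, which reads ATTGG where it lies on the other strand.
SREBF2: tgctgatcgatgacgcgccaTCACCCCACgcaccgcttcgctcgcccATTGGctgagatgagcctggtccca
INSIG1: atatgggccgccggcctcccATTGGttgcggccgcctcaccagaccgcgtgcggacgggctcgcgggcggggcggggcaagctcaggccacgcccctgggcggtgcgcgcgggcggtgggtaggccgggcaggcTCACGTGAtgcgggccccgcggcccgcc
MSMO1: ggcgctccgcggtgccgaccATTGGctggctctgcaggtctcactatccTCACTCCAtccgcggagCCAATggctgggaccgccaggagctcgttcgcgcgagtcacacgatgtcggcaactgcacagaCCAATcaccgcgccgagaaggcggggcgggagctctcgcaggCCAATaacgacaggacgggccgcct
MVK: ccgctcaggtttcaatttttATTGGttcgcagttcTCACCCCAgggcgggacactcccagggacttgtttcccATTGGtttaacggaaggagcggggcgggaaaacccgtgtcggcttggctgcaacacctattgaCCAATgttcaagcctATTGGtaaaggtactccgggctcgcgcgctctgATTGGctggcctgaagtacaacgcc

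The printed stretch of SREBF2 is chr22:41832952-41833023 and holds 1 sterol element and 1 NF-Y box. That of INSIG1 is chr7:155297688-155297849, with 1 palindrome and 1 NF-Y box. MSMO1 is shown at chr4:165327464-165327659, with 1 short sterol element and 4 NF-Y boxes, and MVK at chr12:109573564-109573772, with 1 and 5. The gene positions used elsewhere here, from GENCODE 29, differ from these RefSeq starts. By them MVK starts at 109573255, before its whole stretch, and INSIG1 (155297776) and MSMO1 (165327623) start within theirs. Every motif was searched on both strands, and each TCACNCCAC also counts as a TCACNCCA. Over all 29 genes with a window, TCACNCCAC was found in 1 (SREBF2), TCACNCCA in 3 (SREBF2, MSMO1 and MVK) and TCACGTGA in 1 (INSIG1), beside 1.39%, 4.8% and 1.18% of the 27305 genes with windows. CCAAT was found in 14 of 16 sterol genes, 5 of 8 fatty acid genes and 2 of 5 control genes, beside 39.7% of all genes with windows. The Sp1 box GGGCGG was found in 28 of the 29, beside 48.3% of all. These are counts of letters, not of bound sites. The 29 genes had 42 windows and the 27305 genes had 35116. The shares were not matched for expression, gene type or windows per gene.

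With SAHA for 12 h the sterol arm rose nearly throughout: 16 of its 19 genes rose and none fell, with a median log2 change of 0.87. In the fatty acid arm 6 of 8 tested genes rose and none fell, with a median of 0.47. Over all 13937 tested genes 31.8% rose and 26.9% fell, 58.7% were called in either direction, and the median was 0.05. The 3 sterol genes not called were PMVK, FDPS and CYP51A1, and the fatty acid genes not called were ACACA and SCD.

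The mevalonate steps that rose with SAHA were ACAT2, HMGCS1, MVK, MVD and IDI1. HMGCS1, the synthase that makes the substrate of the mevalonate step, stood at 16.1, 15.5 and 21.2 TPM in control and at 49.9, 47.3 and 57.7 with SAHA (1.51 ± 0.17, adjusted p = 1.44e-05). MVD, a decarboxylase, stood at 97.4, 89.5 and 91.6 TPM and then at 204, 224 and 207 (1.18 ± 0.06). Neither gene's groups overlapped. MVK, the mevalonate kinase, went from 12.1 ± 0.723 to 28.1 ± 1.53 TPM (1.15 ± 0.11), and the fold of the mean TPM was 2.93 for HMGCS1, 2.28 for MVD and 2.33 for MVK. MMAB overlaps MVK on the other strand by 306 exon bases and went the other way, from 35.8 to 21.1 TPM. IDI1, an isomerase, went from 20.5 ± 2.83 to 29.3 ± 4.38 TPM (0.49 ± 0.13). The kinase PMVK (62.4 ± 3.10 and 55.9 ± 2.99 TPM, adjusted p = 0.0898) and FDPS, which makes farnesyl diphosphate (326 ± 16.7 and 340 ± 31.7 TPM, adjusted p = 0.527), were not called.

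From squalene to cholesterol 10 of 11 enzymes rose with SAHA. TM7SF2, a sterol reductase, stood at 19.7, 17.7 and 13.6 TPM in control and at 65.3, 66.0 and 64.1 with SAHA (1.89 ± 0.13, adjusted p = 2.52e-07), the largest change of the 33 genes in this comparison. LSS, the lanosterol synthase, stood at 24.2, 25.7 and 24.6 TPM and then at 63.1, 63.5 and 59.8 (1.29 ± 0.06). FDFT1, the squalene synthase, stood at 224, 223 and 246 TPM and then at 507, 510 and 508 (1.14 ± 0.06). In each of these genes every SAHA library lay above every control library by a wide margin. SQLE, the squalene epoxidase, went from 24.8 ± 2.29 to 52.5 ± 3.15 TPM (1.05 ± 0.10), and SC5D, a sterol desaturase, from 60.0 ± 7.56 to 123 ± 20.3 TPM (1.02 ± 0.16). The other rises were in MSMO1 (0.87), DHCR7 (0.81), EBP (0.70), NSDHL (0.65) and HSD17B7 (0.58). CYP51A1, the lanosterol demethylase, was at 30.4 ± 3.48 and 35.6 ± 4.29 TPM (0.22 ± 0.12, adjusted p = 0.127). On the same strand AC000120.2 shares 2844 of the 3584 exon bases of CYP51A1. AC000120.2 had a mean of 0.05 TPM with SAHA and 0 in the other groups, and how shared reads were assigned is unknown. STARD4, which carries cholesterol between membranes, rose from 2.05 ± 0.445 to 6.46 ± 0.592 TPM (1.30 ± 0.20).

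In the fatty acid arm the largest SAHA rises were in LPIN1 and FADS1. LPIN1, the phosphatidate phosphatase lipin-1, stood at 7.36, 6.92 and 7.81 TPM in control and at 22.7, 19.8 and 25.7 with SAHA (1.5 ± 0.15, adjusted p = 5.67e-06). FADS1, a desaturase of polyunsaturated fatty acids, stood at 5.24, 5.48 and 6.40 TPM and then at 12.9, 12.1 and 13.8 (1.06 ± 0.11). ACSS2, which makes acetyl-CoA from acetate, went from 104 ± 3.83 to 187 ± 10.3 TPM (0.83 ± 0.05). FADS2, the other desaturase of polyunsaturated fatty acids, rose by 0.50 ± 0.11. The enzymes of the core steps changed less. ACLY, which makes acetyl-CoA from citrate, rose by 0.44 ± 0.06 and FASN, the fatty acid synthase, by 0.23 ± 0.08 (adjusted p = 0.0216). The FASN call was lost in 6 of 23 alternatives, 2 of them scalings. ACACA, the acetyl-CoA carboxylase, gave 0.18 ± 0.10 (adjusted p = 0.144) and SCD, the stearoyl-CoA desaturase, 0.10 ± 0.08 (adjusted p = 0.336). The antisense gene AC125257.2 overlaps ACLY by 156 exon bases and moved the same way, from 70.6 to 131 TPM with SAHA and from 62.7 to 143 TPM with SAHA after sonidegib, and its part in the ACLY values was not tested. FADS1 and FADS2 overlap on opposite strands by 490 exon bases, so their values may share reads.

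**Figure D2:**
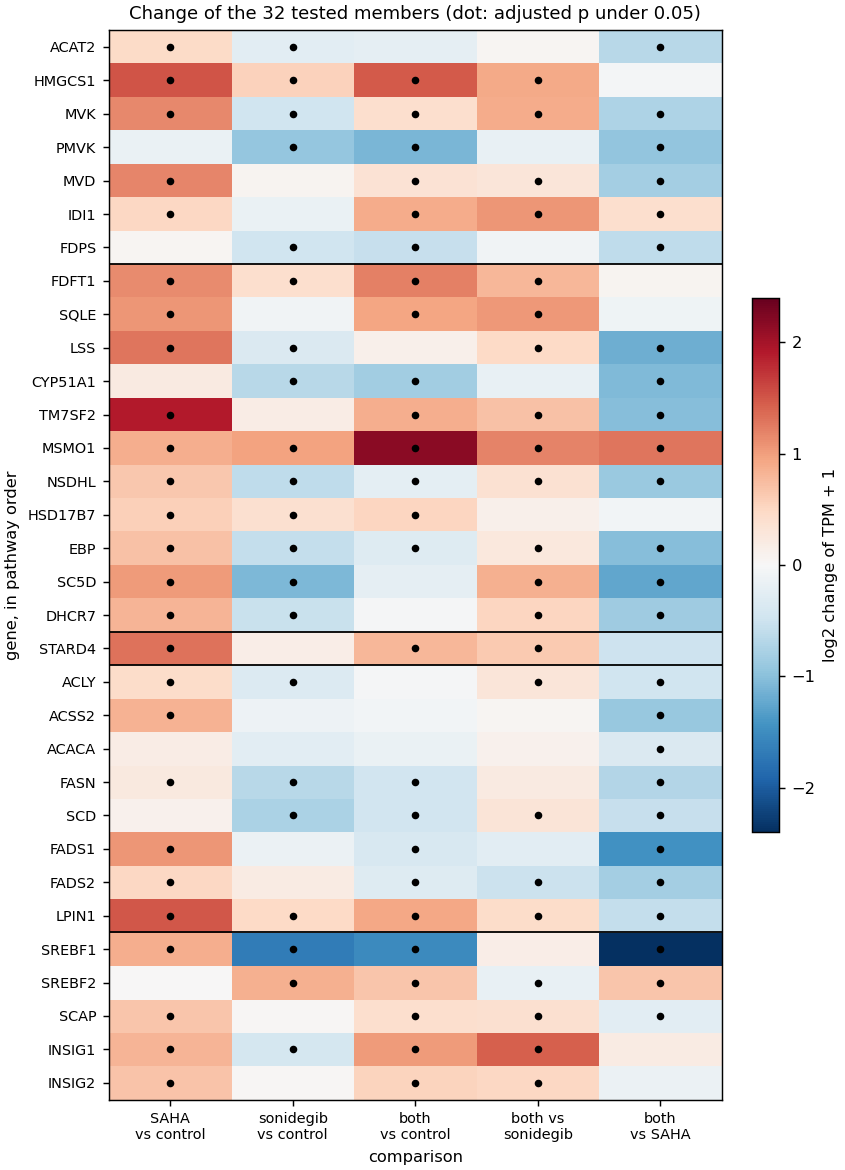
Log2 change of TPM + 1 (colour) of the 32 tested genes in pathway order (rows) in 5 comparisons (columns), with a dot where the adjusted p was under 0.05. The SAHA column holds no called fall, the sonidegib column is mixed, and the column of both drugs against control is higher at HMGCS1, FDFT1 and MSMO1 and lower at PMVK, CYP51A1, FASN, SCD and SREBF1.

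With sonidegib for 72 h much of the sterol arm fell, and HMGCS1, FDFT1, MSMO1 and HSD17B7 rose. In the sterol arm 10 of 19 genes fell and 4 rose (median -0.25), and in the fatty acid arm 3 of 8 tested genes fell and 1 rose (median -0.20). Of all tested genes 29.2% fell and 26.1% rose, 55.3% were called, and the median was -0.02. The share of fatty acid genes that fell is thus near the background, and the share of sterol genes that rose is not above it. The libraries with sonidegib are also those with 5S ribosomal RNA, as given above.

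Among the falls, SC5D stood at 58.1, 53.6 and 68.3 TPM in control and at 23.6, 27.0 and 33.6 with sonidegib (-1.08 ± 0.16, adjusted p = 0.00014). PMVK stood at 64.8, 63.4 and 58.9 TPM and then at 33.1, 33.1 and 31.3 (-0.92 ± 0.07, adjusted p = 1.2e-06). SCD stood at 134, 123 and 151 TPM and then at 75.6, 82.6 and 80.9 (-0.76 ± 0.08, adjusted p = 1.66e-05). In these 3 genes every library with sonidegib lay below every control library. FASN went from 282 ± 21.0 to 178 ± 16.3 TPM (-0.67 ± 0.08), CYP51A1 from 30.4 ± 3.48 to 18.9 ± 1.46 TPM (-0.66 ± 0.12) and NSDHL, a sterol dehydrogenase, from 67.4 ± 4.77 to 44.1 ± 3.09 TPM (-0.60 ± 0.06). The other falls were in EBP (-0.57), DHCR7 (-0.54), MVK (-0.49), FDPS (-0.48), LSS (-0.36), ACLY (-0.32) and ACAT2 (-0.25). The ACAT2 call (adjusted p = 0.0321) was lost in 9 of 23 alternatives. On the other strand ACAT2 shares 397 exon bases with TCP1, which went from 338 to 212 TPM, and 1141 with SOD2, whose 2 rows went from 66.1 to 50.7 and from 41.8 to 30.1 TPM.

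Against this, MSMO1 (ENSG00000052802, chromosome 4, 165327623 to 165343160), the methylsterol monooxygenase, rose with sonidegib. Its libraries stood at 15.9, 17.8 and 21.5 TPM in control and at 31.7, 37.2 and 41.2 with sonidegib (0.96 ± 0.14, adjusted p = 0.000141). HMGCS1 rose from 17.6 ± 3.12 to 26.2 ± 5.02 TPM (0.55 ± 0.17, adjusted p = 0.0178), with overlapping libraries, and this call was lost without control replicate 1 or 2 and without sonidegib replicate 2 or 3. FDFT1 rose from 231 ± 13.3 to 307 ± 10.9 TPM (0.41 ± 0.06) and HSD17B7, a ketoreductase of sterol demethylation, from 11.5 ± 0.570 to 15.4 ± 1.29 TPM (0.39 ± 0.10). HSD17B7 has a close pseudogene copy, HSD17B7P2, listed at 0 to 0.04 TPM. LPIN1 rose by 0.49 ± 0.15 (adjusted p = 0.0172), lost with only these groups in the fit and without control replicate 2 or sonidegib replicate 2. So NSDHL and HSD17B7, which act with MSMO1 in the same demethylation of lanosterol derivatives, went in opposite directions. IDI1, MVD, SQLE, TM7SF2, STARD4, ACSS2, ACACA, FADS1 and FADS2 were not called, with log2 changes between -0.25 and 0.20.

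In the combination the arms parted. Against control 10 of 19 sterol genes rose and 5 fell (median 0.36), while 1 of 8 tested fatty acid genes rose and 4 fell (median -0.24). Over all tested genes 29.7% rose and 34.0% fell, 63.7% were called, and the median was -0.02. The combination, SAHA and sonidegib comparisons share the same 3 control libraries. Over the sterol arm the mean log2(TPM + 1) was 5.27 ± 0.0504 in control libraries, 6.12 ± 0.0384 after SAHA, 5.09 ± 0.0726 after sonidegib and 5.60 ± 0.0967 after both drugs. Over the 8 tested fatty acid genes it was 5.19 ± 0.0591, 5.79 ± 0.0388, 4.99 ± 0.0487 and 5.07 ± 0.033 in the same order. The combination libraries thus lay above control in the sterol arm (5.53 to 5.71 against 5.21 to 5.31) and below control in the fatty acid arm (5.03 to 5.09 against 5.14 to 5.25).

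**Figure D3:**
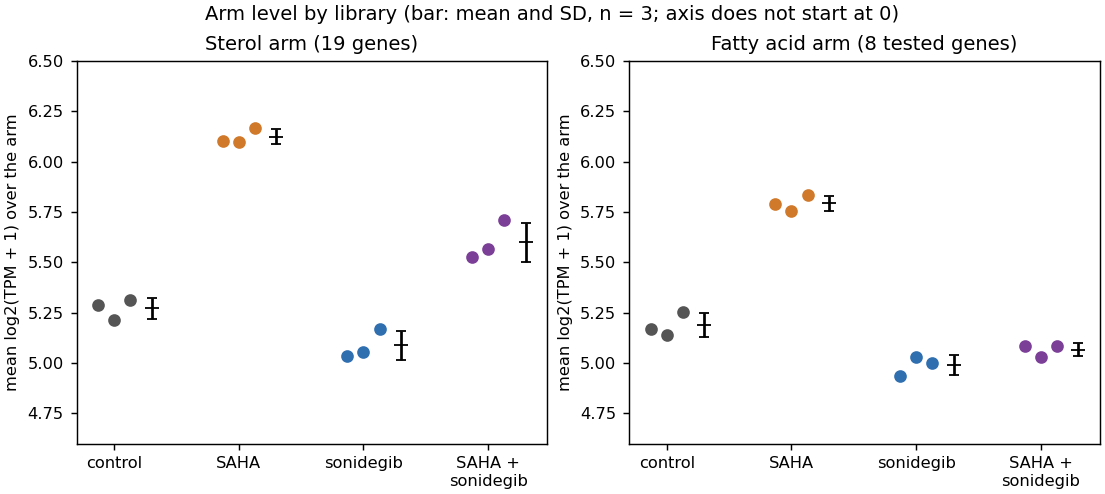
Mean log2(TPM + 1) over the 19 sterol genes (left) and the 8 tested fatty acid genes (right) in each library, by group, with mean and SD. Both arms are highest with SAHA, and the combination lies above control on the left and below control on the right.

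MSMO1 had the largest rise in the combination. It stood at 77.9, 81.2 and 97.2 TPM, against 34.9, 29.2 and 39.4 with SAHA alone, and its mean was 4.64 times that of control (2.16 ± 0.14, adjusted p = 1.3e-07). IDI1 stood at 36.0, 35.8 and 45.4 TPM against 29.2, 24.9 and 33.7 with SAHA alone (0.90 ± 0.13 against control). For both genes every combination library lay above every library of the other 3 groups. HMGCS1, at 43.4, 45.9 and 62.1 TPM (1.46 ± 0.17), FDFT1, at 486, 541 and 576 TPM (1.20 ± 0.06), and SQLE, at 46.3, 45.5 and 54.5 TPM (0.95 ± 0.10), stayed near their levels with SAHA alone. The other sterol rises against control were in TM7SF2 (0.88), STARD4 (0.80), HSD17B7 (0.51), MVK (0.41) and MVD (0.36).

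The sterol falls in the combination were in PMVK (62.4 ± 3.10 to 28.5 ± 2.73 TPM, -1.11 ± 0.07), CYP51A1 (30.4 ± 3.48 to 16.6 ± 2.07 TPM, -0.84 ± 0.12), FDPS (-0.56), EBP (-0.32) and NSDHL (-0.23). ACAT2, LSS, SC5D and DHCR7 were not called, and DHCR7 stood at 156 ± 6.56 and 152 ± 4.45 TPM. In the fatty acid arm FASN (-0.46 ± 0.08), SCD (-0.45 ± 0.08), FADS1 (-0.39 ± 0.11) and FADS2 (-0.31 ± 0.11) fell, and LPIN1 rose (0.92 ± 0.15). The FADS2 call was lost in 8 of 23 alternatives. The NSDHL call was lost under all 3 other scalings. Quantile normalization called 3 sterol falls instead of 5 and 2 fatty acid rises instead of 1. The FASN call was lost there, and the arm medians were 0.49 (sterol) and -0.13 (fatty acid).

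The elongase ELOVL6 was scarce, with 0.31 to 0.49 TPM in control libraries, 0.39 to 0.45 after SAHA, 0.01 to 0.18 after sonidegib and 0.09 to 0.22 after both drugs. The libraries with and without sonidegib did not overlap, at levels too low for the filter, and the main fit left ELOVL6 out. The alternative without the filter held all 9 fatty acid genes, and the ELOVL6 result there is not given. With these 9 genes the median interaction of the arm was -0.15, against -0.47 over the 8 genes of the main fit.

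**Figure D4:**
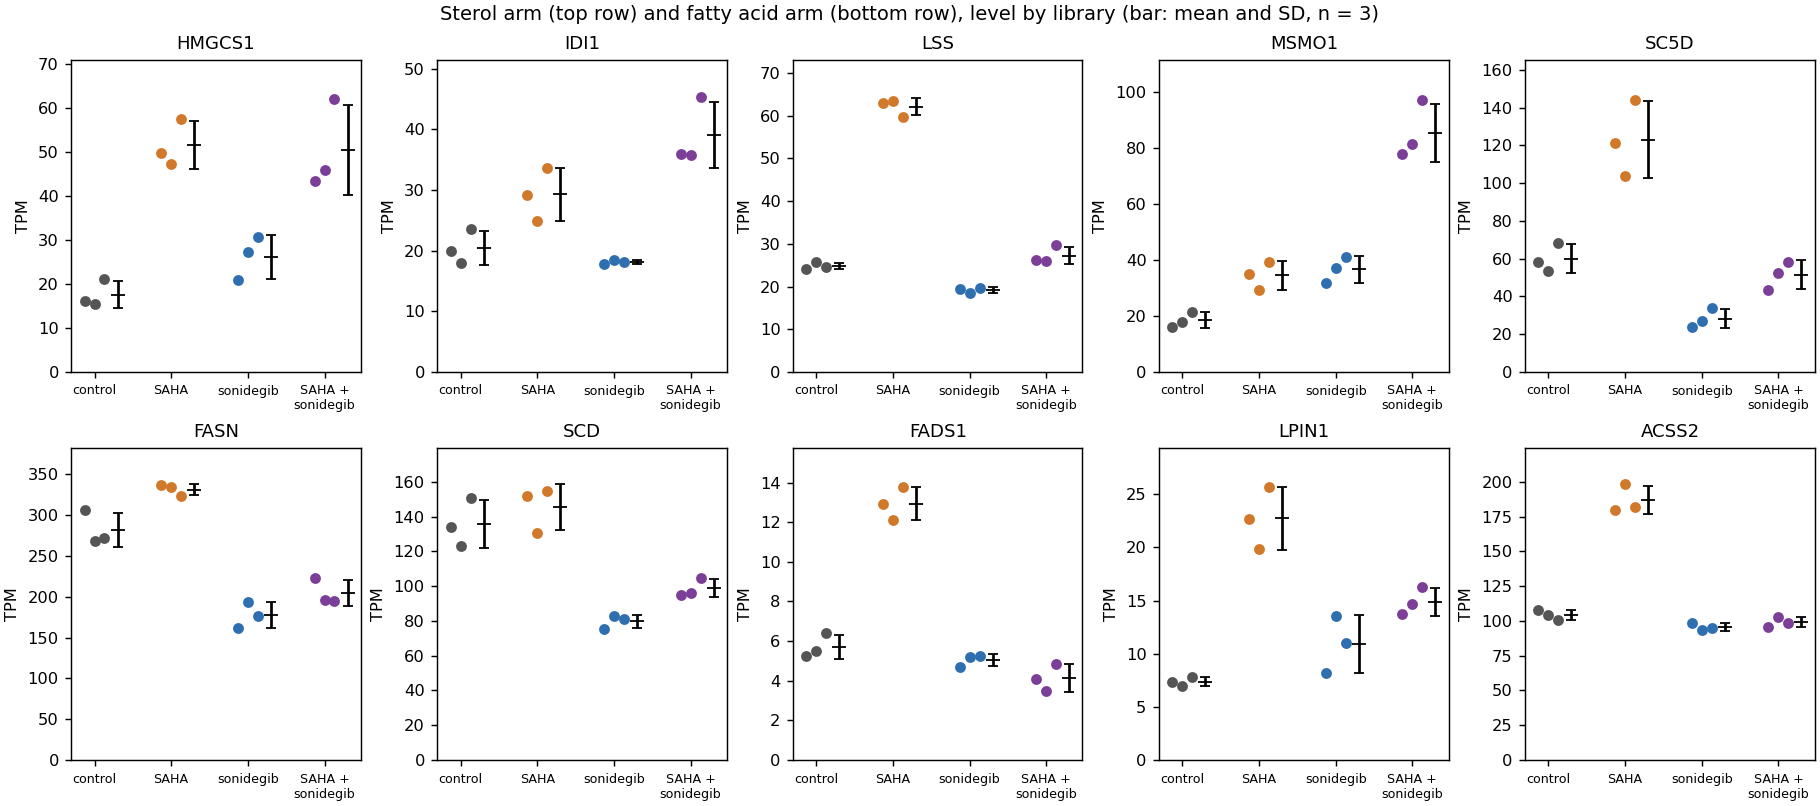
Level in TPM (vertical axes, from 0) of 5 sterol genes (top row) and 5 fatty acid genes (bottom row) in each library, with mean and SD. MSMO1 and IDI1 are highest in the combination, LSS, SC5D, FADS1 and ACSS2 are high with SAHA alone, and FASN and SCD are low in all libraries with sonidegib.

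SAHA was then compared in cells that had sonidegib. Of the sterol genes 14 of 19 rose and none fell (median 0.51), and of the tested fatty acid genes 3 of 8 rose and 1 fell (median 0.15). Over all tested genes 17.5% rose and 21.0% fell, 38.5% were called, and the median was -0.02. MSMO1 (1.20 ± 0.14), IDI1 (1.06 ± 0.13), SQLE (1.03 ± 0.10), HMGCS1 (0.92 ± 0.17), MVK (0.90 ± 0.11), SC5D (0.85 ± 0.16) and FDFT1 (0.79 ± 0.06) led the sterol rises. The fatty acid rises were small, in LPIN1 (0.43), SCD (0.30) and ACLY (0.29), and FADS2 fell (-0.51 ± 0.11). The LPIN1 call was lost in 11 of 23 alternatives, including the omission of any combination library. SCD was lost without sonidegib replicate 1 and without combination replicate 3, which left 1 fatty acid rise. The STARD4 rise (0.63 ± 0.20) was lost in 6 of 22. SREBF2 fell slightly (-0.18 ± 0.05, adjusted p = 0.0126).

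The SAHA effects with and without sonidegib share no library, so they can be set side by side. The effect was lower with sonidegib in 28 of 32 tested genes, beside 55.9% of all tested genes and 91.2% of the 4430 that rose with SAHA alone. Across these genes the effects had a Pearson r of 0.52 (0.64 over the 19 sterol genes and 0.02 over the 8 fatty acid genes; genes are not independent replicates). Of the 26 genes that rose with SAHA alone, 19 also rose with sonidegib present, 6 were not called and 1, FADS2, fell. Of all 4430 genes that rose with SAHA alone, 43.4% also rose with sonidegib present, 50.5% were not called and 6.16% fell. The test of the difference itself called 17 of the 32 genes: 15 had a lower and 2 a higher SAHA effect with sonidegib. This test subtracts the SAHA effect without sonidegib, so genes that rose with SAHA alone lean to lower values. The share called among those 4430 genes was not counted. Over all tested genes 19.7% had a lower and 11.8% a higher interaction, 31.4% in all, and the median was -0.07. Quantile normalization moved that median to 0.03, with 2373 genes higher and 2345 lower against 1642 and 2739. By arm, 9 of 19 sterol genes were lower and 1 higher, and 4 of 8 fatty acid genes were lower and none higher.

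The largest losses of the SAHA effect were in FADS1, TM7SF2 and LPIN1. FADS1 stood at 5.05 ± 0.298 TPM with sonidegib and at 4.14 ± 0.687 with the combination, against a rise from 5.71 ± 0.612 to 12.9 ± 0.831 without sonidegib (interaction -1.30 ± 0.16, adjusted p = 0.000116). TM7SF2 gave -1.19 ± 0.18 (adjusted p = 0.000576) and LPIN1 -1.06 ± 0.21 (adjusted p = 0.00297). FADS2 (-1.01), MVD (-0.89), LSS (-0.81), ACSS2 (-0.78), HSD17B7 (-0.45), EBP (-0.45), ACAT2 (-0.41), FDFT1 (-0.34), DHCR7 (-0.31) and NSDHL (-0.28) were also called. ACSS2, for instance, rose to 187 ± 10.3 TPM with SAHA alone but stood at 95.6 ± 2.82 TPM with sonidegib and 99.0 ± 3.42 with the combination. Besides INSIG1, IDI1 had a larger effect with sonidegib (0.57 ± 0.18, adjusted p = 0.0323), lost in 9 of 22 alternatives. MSMO1 (0.33 ± 0.20, adjusted p = 0.242), SQLE (-0.02 ± 0.14, adjusted p = 0.926) and SC5D (-0.16 ± 0.22, adjusted p = 0.616) were not called. The calls for SREBF1, ACAT2, HSD17B7 and NSDHL were lost in 5, 6, 9 and 12 of 22 alternatives, among them the omission of single libraries, and that for DHCR7 in 2, both scalings.

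**Figure D5:**
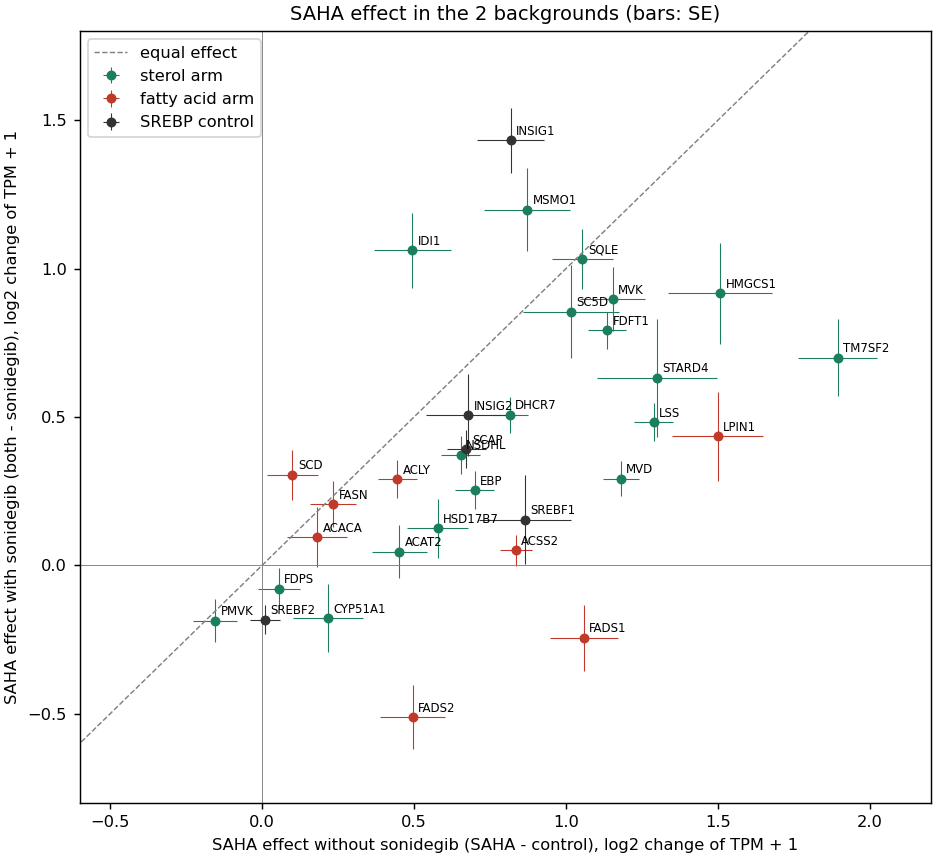
SAHA effect without sonidegib (horizontal axis) and with it (vertical axis), as log2 change of TPM + 1 with SE, for the 32 tested genes, with a dashed line of equal effect. The 4 genes above the line are INSIG1, MSMO1, IDI1 and SCD, and FADS1 and FADS2 lie lowest.

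The combination against SAHA alone compares libraries with and without sonidegib, all of them with SAHA. As given above, sonidegib and a difference in preparation cannot be told apart in such a comparison. Which of them gave the changes below was not tested. All 8 tested fatty acid genes fell (median -0.64), and 12 of 19 sterol genes fell and 2, MSMO1 and IDI1, rose (median -0.74). Over all tested genes 33% fell and 18% rose, 50.9% were called, and the median was -0.12, which became -0.01 to 0.00 under the 3 other scalings. After median-of-ratios scaling 3502 genes were higher and 3735 lower, against 2506 and 4594 without it. SREBF1 gave the largest fall of the 33 genes (-2.39 ± 0.15, adjusted p = 2.92e-07), followed by FADS1 (-1.45 ± 0.11), SC5D (-1.24 ± 0.16) and LSS (-1.16 ± 0.06). MSMO1 rose by 1.29 ± 0.14 and IDI1 by 0.40 ± 0.13 (adjusted p = 0.0197). The IDI1 call was lost with only these groups in the fit, without SAHA replicate 2 and without combination replicate 3, which left 1 sterol rise. ACACA fell by 0.34, a call lost under all 3 other scalings.

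Other genes of sterol and lipid handling were read from lists in the same fits. Their counts stand beside the shares of all tested genes given above: 31.8% rose and 26.9% fell with SAHA. With SAHA, sterol esterification and trafficking genes rose in 12 of 14 and fell in 1, among them NPC1, the lysosomal cholesterol exporter (13.9 to 33.5 TPM, 1.21 ± 0.10), and NCEH1, a cholesterol ester hydrolase (1.45 ± 0.15). Of the liver X receptors, their targets and efflux genes 6 of 9 rose, with the sterol exporter ABCG1 at 1.5 ± 0.08 and the acyltransferase LPCAT3 at 1.60 ± 0.08. The 2 that fell were the receptors NR1H2 (-0.76 ± 0.07) and NR1H3 (-0.72 ± 0.10). Genes of SREBP cleavage and sterol-sensing degradation rose in 4 and fell in 4 of 10. The list of other mevalonate branches rose in 1 and fell in 6 of 11. It also held MMAB, which overlaps MVK and is not an enzyme of that pathway. DHDDS, for dolichol, was at 1.08 ± 0.06 and COQ2, for ubiquinone, at -1.13 ± 0.10. Fatty acid oxidation genes rose in 11 of 19 and fell in none, with the carnitine palmitoyltransferase CPT1A from 25.8 to 73.0 TPM (1.47 ± 0.06). The other fatty acid enzymes rose in 14 and fell in 5 of 21, with the elongase ELOVL3 from 1.29 to 16.9 TPM (2.99 ± 0.15), and the glycerolipid genes rose in 9 and fell in 2 of 13.

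With sonidegib, where 26.1% of all tested genes rose and 29.2% fell, the trafficking list rose in 10 of 14 and fell in 1, with the sterol hydroxylase CYP27A1 from 35.6 to 115 TPM (1.67 ± 0.09), and fatty acid oxidation rose in 12 of 19 and fell in 1. No gene of the cleavage and degradation list rose, and 3 of 10 fell, near the share of all genes, among them TMEM97 (-0.82 ± 0.07). The liver X receptor list rose in 5 and fell in 2 of 9, with ABCG1 at 1.12 ± 0.08. The lists of other fatty acid enzymes and of glycerolipid genes were mixed, with 7 rises and 6 falls of 21 and 5 and 3 of 13. The list of other mevalonate branches, MMAB included, rose in 3 and fell in 6 of 11. FNTA, a prenyltransferase subunit, was at 1.12 ± 0.12 and PDSS1, for ubiquinone, at -1.34 ± 0.17. Among the fatty acid and glycerolipid genes ACSL1, an acyl-CoA synthetase, rose by 1.02 ± 0.06 and PLIN2, a lipid droplet coat protein, fell by 0.74.

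In the combination against control, where 29.7% of all tested genes rose and 34.0% fell, trafficking genes rose in 11 and fell in 2 of 14. The liver X receptor list rose in 6 and fell in 1 of 9. The list of other mevalonate branches, MMAB included, rose in 2 and fell in 6 of 11. The cleavage and degradation list rose in 1 and fell in 3 of 10. Fatty acid oxidation genes rose in 13 and fell in 1 of 19. PLIN2 went from 33.6 TPM in control to 22.5 after SAHA, 19.7 after sonidegib and 11.03 after both drugs (-1.53 ± 0.07). CPT1A, at 73.0 TPM with SAHA alone, was at 31.0 TPM with the combination (-1.21 ± 0.06 against SAHA). LIPE, a lipase of stored fat, went from 2.87 TPM in control to 20.4 with the combination (2.47 ± 0.10). The other fatty acid enzymes rose in 10 and fell in 7 of 21, and the glycerolipid genes rose in 6 and fell in 4 of 13.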

How the data were processed

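The deposited table held TPM (length-corrected transcript shares) in 1 column per library, scaled by the authors over all genes and rounded to 2 decimals. Bowtie2 2.4.1 and the build GRCh38 are named in the submitters' processing notes. The quantifier, annotation release and library strandedness are not given in the sources used here. TPM keep no counts, so the depth cannot be stated and counting error was not estimated.

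Groups and replicate numbers came from sample titles. In R 4.3.3, limma 3.58.1 was fitted to log2(TPM + 1): 4 group means, 8 residual degrees of freedom, variances moderated with an intensity trend, two-sided tests and Benjamini-Hochberg adjustment over all 13937 genes averaging 1 TPM or more. The interaction was combination minus sonidegib minus SAHA plus control. The script was tested on simulated data. Arms are described by counts and medians, without a test.

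Named genes were all 33 members and, from 7 further lists, up to 2 rises and 2 falls per comparison. Some that qualified are left unnamed. The members, lists and tests were chosen with earlier results of these data known, and the motifs were chosen after the values were seen. The lists' symbols were matched to the table; gene positions are from GENCODE 29. There were 23 alternatives.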

Additional observations from a re-analysis of the deposited data

Results flagged for a closer look

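The SAHA effect differed between cells with and without sonidegib, by limma's interaction term on log2(TPM + 1), in 17 of the 32 tested genes. The effect with sonidegib minus that without it was negative for 15 of them: FADS1 at -1.30, TM7SF2 at -1.19, LPIN1 at -1.06, FADS2 at -1.01, MVD at -0.89, LSS at -0.81, ACSS2 at -0.78 and SREBF1 at -0.71. The smaller ones were HSD17B7 at -0.45, EBP at -0.45, ACAT2 at -0.41, FDFT1 at -0.34, DHCR7 at -0.31, NSDHL at -0.28 and SCAP at -0.28. It was positive for INSIG1 at 0.62 and IDI1 at 0.57. Over all tested genes 31.4% were called. Of the genes that rose with SAHA alone, 91.2% had a lower effect with sonidegib. Since the libraries with sonidegib differ from the others in 5S ribosomal RNA, the background of sonidegib and a difference in preparation cannot be told apart in these values.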

How the results depend on the processing

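Of 136 calls of members over the 6 comparisons, 114 were kept in all alternatives run for them (23, but 22 for the interaction, not refitted with only the groups compared, and for STARD4, which averages under 5 TPM, and 21 for both), 22 were lost in at least 1 and none of the 136 changed sign. Of 56 values not called, 20 were called under at least 1 alternative. Quantile normalization gave DHCR7 0.18 and ACLY 0.14 in the combination against control, called and opposite in sign to the uncalled main values, and it gave 3 sterol falls and 2 fatty acid rises there. With SAHA, 75th percentile scaling called 1 sterol fall (PMVK), against 0. With only the groups compared in the fit, sonidegib gave 0 fatty acid rises and the combination against SAHA gave 1 sterol rise. Without the filter the interaction had 0 sterol genes higher. It had 1 fatty acid gene higher under median-of-ratios and 1 under 75th percentile scaling. The cause was not tested. Leaving out 1 library at a time gave 0 to 1 fatty acid rises with sonidegib, and for the combination against sonidegib 0 to 1 sterol falls, 1 to 4 fatty acid rises and 1 to 2 fatty acid falls. It gave 1 to 2 sterol rises for the combination against SAHA and 0 to 1 for the interaction.

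With the replicate number as a block (replicate block), the combination against sonidegib had 1 sterol fall, against 0. Deviations from the group means correlated at -0.06 to 0.11 for same-numbered libraries and at -0.11 to 0.10 for unlike numbers, so the numbers were not taken to pair the samples. That 8 of 12 libraries correlated best with their own number is a hint of shared deviation from the data, not from the design. The depth is unknown, which limits what can be said of STARD4 and ELOVL6.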
